A study of Mus musculus with 6 samples.

Results

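Respiratory complexes III and IV and the ATP synthase were examined in adrenal glands of mice with and without PACAP, a neuropeptide by which the splanchnic nerve signals to the chromaffin cells of the adrenal medulla. Members were the clones of genes whose current mouse symbol begins with Uqcr, Cox4, Cox5, Cox6, Cox7, Cox8 or Atp5, together with Cyc1 and Cycs. The rule used no measured value. It gave 85 of 36240 clones, for 39 of 11837 named genes: 17 clones of 8 complex III genes, 3 clones of the cytochrome c gene Cycs, 26 clones of 13 complex IV genes and 39 clones of 17 ATP synthase genes. Of these clones, 81 had values on at least 4 arrays and were tested. The other 4 were 1 clone each of Uqcr10, Cox6b2, Atp5g3 and Atp5o, so that 37 of the 39 genes had a tested clone.

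Each of 6 spotted cDNA arrays held total RNA of an adrenal gland sample of genotype PACAP +/+ labelled with Cy5 (red) and one of genotype PACAP -/- labelled with Cy3 (green), both on the 129XC57BL6 F2 background. Age, sex and treatment are not stated in the labels, and nor is whether the 6 repeats came from different mice. What the p-values rest on is the scatter among the 6 arrays, part of which may be technical. No array exchanged the dyes, so a dye effect of a clone and an effect of the genotype cannot be told apart. Values are log2 ratios of knockout over wild type, normalized by a loess curve within each print block (the patch of the array printed by 1 pin), unless stated otherwise. A clone was called higher or lower at a Benjamini-Hochberg adjusted p below 0.05 (limma, over 28878 clones).

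Cells extract energy from nutrients by passing electrons along the inner mitochondrial membrane. Complex III takes them from ubiquinol and hands them to cytochrome c, a small soluble protein, from which complex IV (cytochrome c oxidase) passes them on to oxygen. Both complexes pump protons, and the ATP synthase lets the protons flow back through its membrane part to drive a rotor inside its catalytic head, which makes ATP. In the adrenal gland the mitochondria also hold enzymes of steroid synthesis in the cortex, and ATP powers the loading of catecholamine granules in the medulla. Most subunits are encoded in the nucleus, as all members here are. The mitochondrially encoded subunits of the 3 complexes had no clone under the names searched.

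The arrays differed in wild-type signal. The deposited signals already lack the local background (net signals), and each was divided here by that background. On arrays 1 to 6 the median of this ratio was 4.78, 1.37, 2.07, 1.14, 2.11 and 1.65 in red. In green its median lay between 5.38 and 7.06. After the filter on spot quality, 26026 to 31946 of 37632 spots per array remained. Adcyap1, which encodes PACAP, could not serve to check the genotypes. Its only clone was kept by the filter on 2 arrays, and without the filter its ratio was -0.10 ± 0.20 (SE, n = 6, adjusted p = 0.779). Its net red signal was smaller than the local background on 4 arrays. For the labelled tissue, 9 of 10 clones of cortical markers and 9 of 9 clones of chromaffin markers could be tested. So could all 4 endothelial and all 3 red cell marker clones, so being testable does not check the tissue. The adrenal markers were bright, with a median log2 intensity (mean of both channels) of 11.53 for cortical and 10.95 for chromaffin clones. It was 8.82 over all clones tested and 7.18 to 9.41 for the lists of other cell types.

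Higher ratios in the knockout were found among clones of the ATP synthase and, beside 1 lower clone, of complex IV. No clone of complex III (16 tested) or cytochrome c (3 tested) passed. These lists are too short for the absence of calls to be read as a result about them. Of the 81 member clones, 15 were higher and 1 was lower (19.8% of them), against 11.3% of all clones tested, of which 6.77% were higher and 4.55% lower. The 16 clones belonged to 11 genes, and 13 of them had 1 sign on every array. With 1 clone per gene, the brightest, 5 of 37 members passed (13.5%), against 11.0% of the brightest clones of all named genes, so the share above background was smaller when repeated clones of a gene were not counted. In that count complex IV had 1 higher and 1 lower of 12 genes, so it showed no direction, and the ATP synthase had 3 higher of 17. At an unadjusted p below 0.05, 34 member clones were higher and 5 lower, a bound under which 32.8% of all clones fell (17.8% higher, 15.0% lower). The median ratio of the member clones was 0.20, beside -0.00 for all clones, and 22 members were higher on every array measured, where 11.0% of all clones were. Clones of 1 gene share a target and are not independent: 27 genes had at least 2 tested clones, and in 20 of them all clones had the same sign.

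These calls rested on the whole set of arrays. Without array 2, 3, 4 or 6, no member clone passed (30, 31, 30 and 33 were under an unadjusted p of 0.05, as were 25.1%, 27.3%, 24.3% and 33.0% of all clones), whereas 21 passed without array 1 and 12 without array 5. The calls over all clones moved alike, to 1, 1, 29 and 1 without arrays 2, 3, 4 and 6, from 3271. The plot of member clones shows each estimate with its error.

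**Figure D1:**
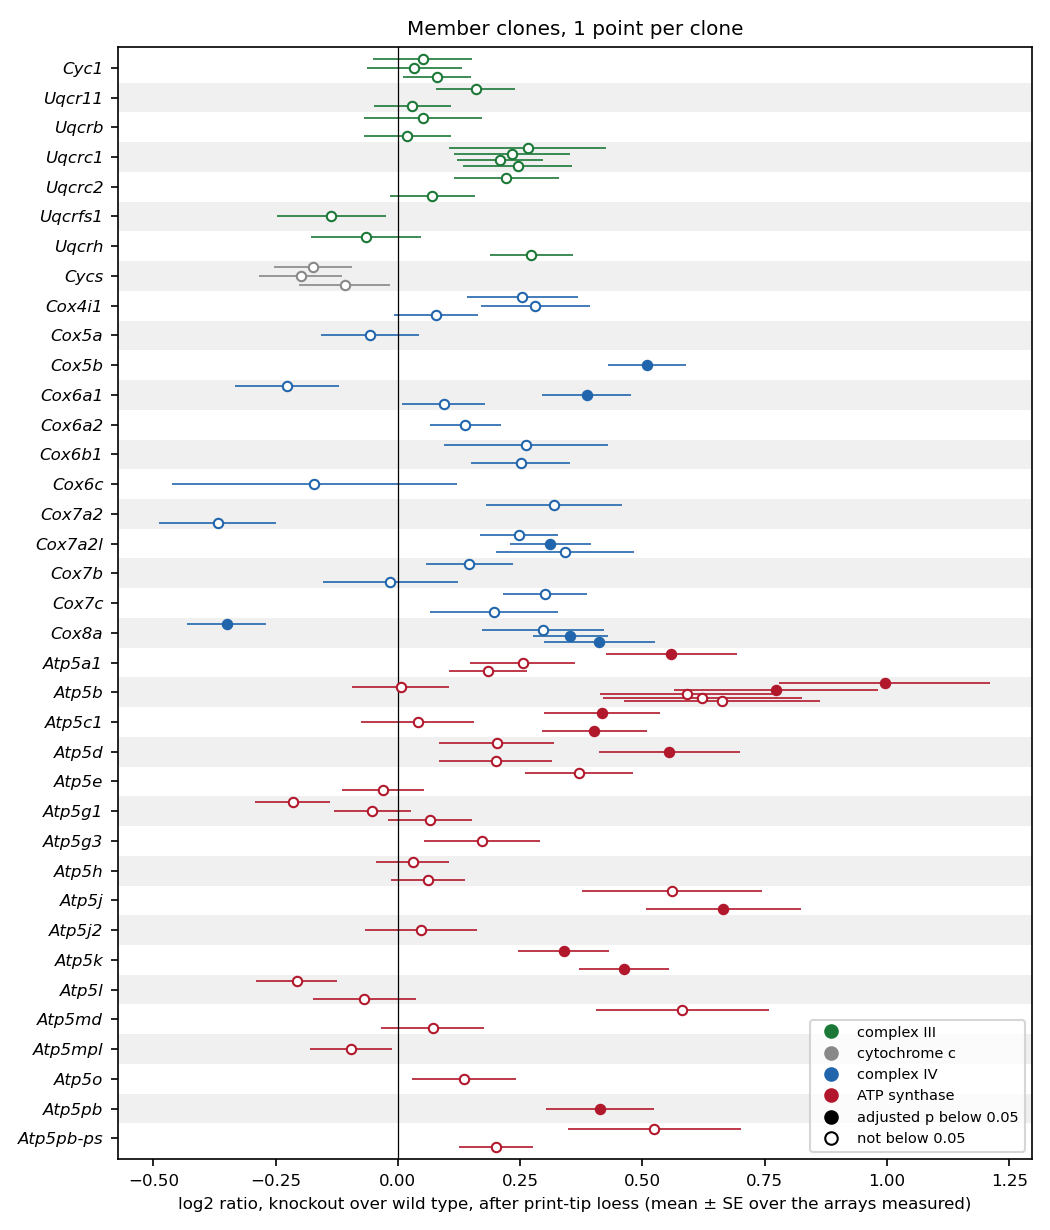
Each point is 1 clone, placed by its log2 ratio of knockout over wild type (x axis, mean over the arrays measured, bars ± SE) in the row of its gene (y axis), coloured by complex and filled where the adjusted p was below 0.05. ATP synthase clones reach up to 1.00, complex III clones lie between -0.14 and 0.27 with none filled, and the 3 Cycs clones lie below 0.

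Complex III members stayed close to the array average. Of 16 tested clones none passed, and the unadjusted p of 2 was below 0.05, where 32.8% of all clones were. Their median was 0.07, with a range from -0.14 to 0.27, and 14 had a positive ratio, beside 49.9% of all clones. The clones of the core proteins, Uqcrc1 and Uqcrc2, which form the matrix-facing part of the complex, had the higher values, with a median of 0.23 over 6 clones. On arrays 1 to 6 the median of these 6 clones was -0.20, 0.53, 0.26, 0.31, 0.07 and 0.10, highest on arrays 2 and 4. The 4 Uqcrc1 clones had means between 0.21 and 0.27 and, without arrays 2 and 4, of 0.08, 0.16, 0.06 and 0.07 (blocks 19, 43, 44 and 48). The clone in print block 48 gave -0.52, 0.94, 0.30, 0.38, -0.07 and 0.56. Its mean of 0.27 ± 0.16 (SE, n = 6) thus hid both signs, with the lowest value on array 1 and the highest on array 2.

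The clones that carry electrons within the complex showed smaller values. Cyc1, which encodes cytochrome c1, the subunit that passes electrons to cytochrome c, had 3 clones between 0.03 and 0.08. Uqcrfs1 encodes the Rieske iron-sulfur protein, and its clone gave 0.25, -0.64, 0.01, -0.32, -0.11 and -0.00 on arrays 1 to 6, a mean of -0.14 ± 0.11. Among small subunits, the 2 clones of Uqcrb had means of 0.02 and 0.05, and those of Uqcr11 0.03 and 0.16.

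The lowest adjusted p in complex III was that of Uqcrh, the hinge protein that helps cytochrome c1 dock cytochrome c. Its clone in print block 21 gave 0.03, 0.16, 0.22, 0.48, 0.47 and 0.27 on arrays 1 to 6. All 6 values were above 0, and the mean was 0.27 ± 0.08 (SE, n = 6, adjusted p = 0.0602). The other Uqcrh clone, in block 47, gave 0.12, -0.47, -0.18, 0.24 and -0.04 on the 5 arrays that measured it. It averaged -0.07 ± 0.11 (adjusted p = 0.714), so the 2 clones of this gene did not share a sign.

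Cycs, the gene of cytochrome c itself, was below 0 in each of its 3 clones, and none passed. That in block 27 gave 0.06, -0.29, -0.21, -0.14, -0.14 and -0.46 on arrays 1 to 6, with array 1 alone above 0. Its mean was -0.20 ± 0.08 (SE, n = 6, adjusted p = 0.133). In block 42 the values were -0.10, -0.09, -0.02, -0.11, -0.38 and -0.33 (mean -0.17 ± 0.08, adjusted p = 0.161), and in block 26 they were 0.11, -0.10, -0.00, -0.16, -0.52 and 0.01 (mean -0.11 ± 0.09, adjusted p = 0.434). The unadjusted p of 1 of the 3 was below 0.05.

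In complex IV, 5 of 25 tested clones were higher and 1 was lower, beside 6.77% and 4.55% of all clones. The median of the 25 was 0.25, with a range from -0.37 to 0.51. Those higher were clones of Cox5b, Cox6a1, Cox7a2l and, with 2 clones, Cox8a. The unadjusted p was below 0.05 for 12 higher and 2 lower clones, beside 17.8% and 15.0% of all clones. Of the 25 clones, 10 were higher on every array measured, and 2 were lower on every array.

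Cox5b encodes a peripheral subunit on the matrix side, and its clone in block 43 had the smallest adjusted p of all members. The deposited wild-type (red) intensities were 205.2, 70.2, 99.7, 38.7, 107.7 and 104.9 on arrays 1 to 6, and the knockout (green) intensities 517.1, 323.3, 424.9, 244.7, 333.7 and 875.4. After normalization the log2 ratios were 0.61, 0.47, 0.33, 0.40, 0.52 and 0.72. The values spread less than those of the ATP synthase clones that passed, and the highest was on array 6. The mean was 0.51 ± 0.08 (SE, n = 6, 1.42-fold, adjusted p = 0.0233), and it was 0.55 without arrays 2 and 4.

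Cox6a1 encodes the widely expressed form of subunit 6a. Its clone in block 29 gave 0.37, 0.17, 0.27, 0.77, 0.28 and 0.46, all above 0, averaging 0.39 ± 0.09 (SE, n = 6, adjusted p = 0.0341). Its other clones did not follow: block 26 gave 0.30, 0.01, 0.30, 0.07, 0.02 and -0.14 (mean 0.09 ± 0.08), and block 47 gave -0.21, -0.57, -0.07, 0.12, -0.07 and -0.56 (mean -0.23 ± 0.11, adjusted p = 0.165). Cox6a2, the form of heart and skeletal muscle, had 1 clone at 0.14 ± 0.07 (adjusted p = 0.208).

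The promoters of Cox6a1 and Cox5b are shown because nuclear respiratory factor 1 (NRF1), ETS family factors such as GABP, and YY1 are textbook regulators of respiratory chain genes, and both genes had a called clone. Each line gives the 250 bases before the RefSeq start in GRCm38.p6, 5′ to 3′ on the gene's strand, with capitals where the letters of NRF1 (GCGC, then A and any base, then GCGC), ETS (CCGGAAG) or YY1 (AANATGGC), or of their reverse complements, were found. The Cox6a1 window is chr5:115348959-115349208 (minus strand) and the Cox5b window chr1:36691237-36691486 (plus strand).
Cox6a1: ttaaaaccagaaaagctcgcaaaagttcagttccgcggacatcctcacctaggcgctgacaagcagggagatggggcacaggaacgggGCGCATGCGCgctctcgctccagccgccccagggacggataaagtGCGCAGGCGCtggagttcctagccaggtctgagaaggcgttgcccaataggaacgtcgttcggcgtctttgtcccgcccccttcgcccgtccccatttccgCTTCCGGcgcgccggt
Cox5b: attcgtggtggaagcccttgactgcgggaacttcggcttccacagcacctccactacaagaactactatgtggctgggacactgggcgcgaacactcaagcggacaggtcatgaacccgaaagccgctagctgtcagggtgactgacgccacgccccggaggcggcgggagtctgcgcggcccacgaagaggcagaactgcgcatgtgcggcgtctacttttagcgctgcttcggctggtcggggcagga
In Cox6a1, a pair of NRF1 matches and an ETS match were found. The Cox5b window held none of the letters searched, which says only that they are not in this stretch.

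Cox7a2l is related to subunit 7a and is known as a factor that joins complexes III and IV into supercomplexes. All 3 of its clones were positive on every array. In block 28 the values were 0.12, 0.38, 0.16, 0.57, 0.31 and 0.33, and their mean 0.31 ± 0.08 (SE, n = 6, adjusted p = 0.0412). In block 32 the values were 0.12, 0.35, 0.22, 0.05, 0.43 and 0.31 (mean 0.25 ± 0.08, adjusted p = 0.0672), and the scanner title of this clone describes it only as similar to another protein. In block 18 they were 0.04, 0.39, 0.11, 1.18, 0.25 and 0.08 (mean 0.34 ± 0.14, adjusted p = 0.124), with array 4 far above the others. The other genes whose symbols begin with Cox7, which are Cox7a2 (subunit 7a), Cox7b and Cox7c, had no called clone. Cox7a2 gave -0.37 and 0.32 in its 2 clones, Cox7b -0.02 and 0.15, and Cox7c 0.20 and 0.30.

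Cox8a, which encodes a small subunit of the membrane part, had 4 clones that disagreed. On arrays 1 to 6 the block 9 clone gave 0.32, 0.33, 0.48, 0.38, 0.13 and 0.48, a mean of 0.35 ± 0.08 (SE, n = 6, adjusted p = 0.0312). That in block 7 gave 0.19, 0.83, 0.33, 0.37, 0.01 and 0.74 (mean 0.41 ± 0.11, adjusted p = 0.0461), and that in block 37 gave 0.04, -0.17, 0.26, 0.58, 0.24 and 0.83 (mean 0.30 ± 0.12, adjusted p = 0.129). The fourth, in block 38, was lower on every array, with -0.18, -0.50, -0.17, -0.44, -0.28 and -0.52 and a mean of -0.35 ± 0.08 (adjusted p = 0.0334). Thus no direction can be given for Cox8a. With 1 loess curve per array in place of 1 per print block, the sign of the block 9 clone turned (-0.11), and none of the 3 called Cox8a clones was called.

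The remaining complex IV genes had no called clone. Cox4i1, the common form of subunit 4, on which ATP acts to slow the enzyme, had 3 positive clones at 0.08, 0.25 and 0.28. Cox5a had 1 clone at -0.06. Of the 2 clones of Cox6b1, that in block 10 was above 0 on every array (mean 0.25 ± 0.10, adjusted p = 0.119). That in block 15 averaged 0.26 ± 0.17 (adjusted p = 0.298), with 1.28 on array 6 and -0.16 to 0.30 on the other arrays. The clone of Cox6c averaged -0.17 ± 0.29, since array 3 gave -2.14 and the other arrays -0.07 to 0.51.

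**Figure D2:**
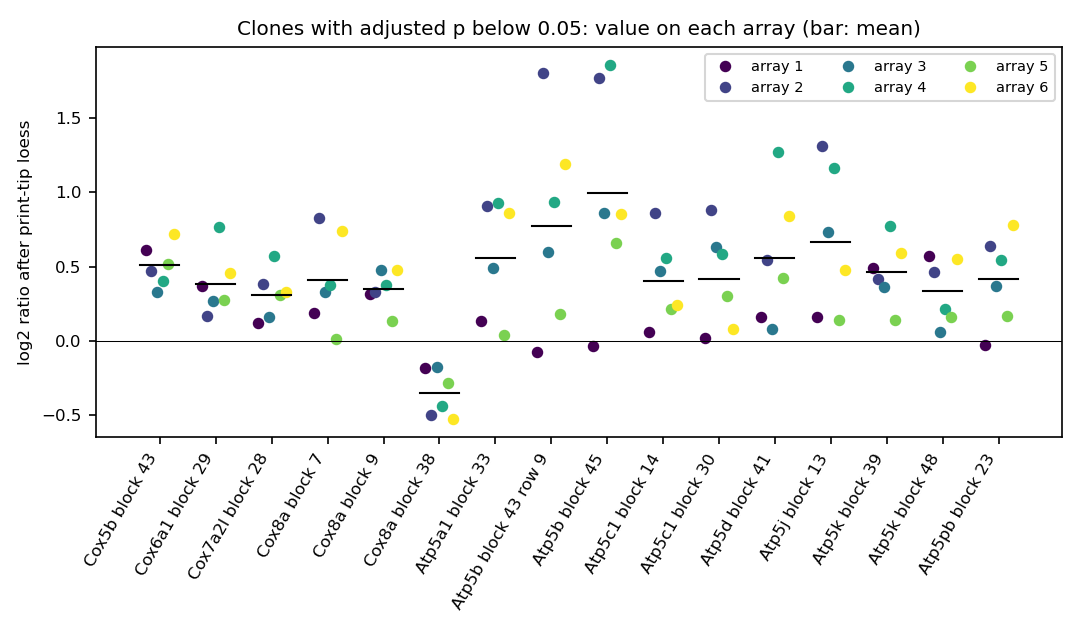
The 16 member clones with an adjusted p below 0.05 are placed along the x axis by gene and print block, and the points give the log2 ratio of knockout over wild type on each array (y axis), with a bar at the mean. Values of Cox5b lie between 0.33 and 0.72 on all arrays, whereas those of the Atp5b clone in block 45 run from -0.03 on array 1 to 1.86 on array 4.

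Among the ATP synthase clones, 10 of 37 tested were higher and none was lower, beside 6.77% and 4.55% of all clones. They belonged to Atp5a1, Atp5b, Atp5c1, Atp5d, Atp5j, Atp5k and Atp5pb, and the median of all 37 was 0.20 with a range from -0.22 to 1.00. At an unadjusted p below 0.05, 20 were higher and 2 lower, beside 17.8% and 15.0% of all clones. By position in the enzyme, 6 of 17 clones of the F1 head (the catalytic part in the matrix, counted with its central stalk) were higher, beside 6.77% of all clones. Of these 17 clones, 6 were of Atp5b. Higher were also 2 of 6 clones of the peripheral stalk that holds the head still, 2 of 8 of the small membrane subunits (both of Atp5k) and 0 of 4 of the c ring. The lists other than the head are short, and 0 of 4 is not read as a result about the c ring. The unadjusted p of 1 c ring clone was below 0.05.

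Atp5b encodes the beta subunit, which carries the catalytic sites. Of its 6 clones, 5 averaged between 0.59 and 1.00, and 2 of them passed. The clone in block 45 had deposited wild-type intensities of 3282.9, 867.8, 1277.9, 352.4, 668.1 and 853.2 and knockout intensities of 3720.9, 6072.3, 6598.2, 4131.9, 2220.2 and 4222.1 on arrays 1 to 6. Its log2 ratios were -0.03, 1.77, 0.86, 1.86, 0.66 and 0.86, near 0 on array 1 and highest on arrays 2 and 4, and averaged 1.00 ± 0.22 (SE, n = 6, 1.99-fold, adjusted p = 0.0310). The scanner title of this clone names a collagen gene, so its identity is uncertain. The clone in block 43 (row 9) gave -0.07, 1.81, 0.60, 0.93, 0.18 and 1.19, a mean of 0.77 ± 0.21 (adjusted p = 0.0439). Without arrays 2 and 4 these means were 0.59 and 0.47. The clones in blocks 1, 19 and 21 had means of 0.66, 0.62 and 0.59 and adjusted p of 0.0615, 0.0699 and 0.0558. The sixth clone, in row 14 of block 43, averaged 0.01 ± 0.10.

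Atp5a1, whose alpha subunit alternates with beta in the head, had 3 positive clones. That in block 33 gave 0.13, 0.91, 0.49, 0.93, 0.04 and 0.86 (mean 0.56 ± 0.13, adjusted p = 0.0351). In block 19 the values were -0.03, 0.56, 0.33, 0.62, 0.02 and 0.03 (mean 0.25 ± 0.11), and in block 16 they were 0.04, 0.25, 0.12, 0.32, 0.01 and 0.35 (mean 0.18 ± 0.08). All 3 had low values on arrays 1 and 5.

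The central stalk, which turns inside the head, is built from the products of Atp5c1 (gamma), Atp5d (delta) and Atp5e (epsilon). The Atp5c1 clone in block 30 gave 0.02, 0.88, 0.63, 0.58, 0.30 and 0.08 (mean 0.42 ± 0.12, adjusted p = 0.0492), and that in block 14 gave 0.06, 0.86, 0.47, 0.56, 0.22 and 0.24 (mean 0.40 ± 0.11, adjusted p = 0.0424). Without arrays 2 and 4 their means were 0.26 and 0.25. The other Atp5c1 clone, in block 24, gave -0.47, 0.07, 0.09, 0.28, -0.16 and 0.43 (mean 0.04 ± 0.11). Of the Atp5d clones, that in block 41 gave 0.16, 0.55, 0.08, 1.27, 0.42 and 0.84, all above 0 with the highest on array 4 (mean 0.56 ± 0.14, adjusted p = 0.0409). The other 2, in blocks 39 and 43, gave nearly the same profile as each other: 0.04, 0.73, 0.15, 0.46, -0.07 and -0.09, and 0.19, 0.70, 0.13, 0.47, -0.13 and -0.14. Both averaged 0.20 ± 0.12. Atp5e gave -0.03 and 0.37 in its 2 clones.

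In the peripheral stalk, Atp5j (factor 6) had 2 clones with similar profiles. Block 13 gave 0.16, 1.31, 0.74, 1.16, 0.14 and 0.48 (mean 0.67 ± 0.16, 1.59-fold, adjusted p = 0.0348), and that in block 38 gave -0.03, 1.32, 0.49, 1.18, 0.50 and -0.11 (mean 0.56 ± 0.18, adjusted p = 0.0702). Without arrays 2 and 4 the mean of the first was 0.38. Atp5pb, which encodes subunit b, the long rod of the stalk, gave -0.03, 0.64, 0.37, 0.55, 0.17 and 0.78 (mean 0.41 ± 0.11, adjusted p = 0.0424). Clones of its processed copy Atp5pb-ps averaged 0.20 and 0.52, and since the scanner titles call both of them subunit b of the ATP synthase, copy and gene cannot be told apart. Atp5h (subunit d) had 2 clones at 0.03 and 0.06, and the scanner title of the one at 0.03 names or describes another gene. Atp5o, the subunit that joins stalk and head, had 1 tested clone at 0.14 ± 0.11.

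Atp5k encodes subunit e, a small membrane subunit that takes part in dimer formation. Among the ATP synthase genes it alone had every tested clone called among those with more than 1 clone. The clone in block 39 had wild-type intensities of 517.8, 127.0, 267.3, 171.1, 428.7 and 778.8 and knockout intensities of 1107.4, 587.8, 1174.2, 1371.7, 1239.4 and 5832.5. Its log2 ratios were 0.49, 0.41, 0.36, 0.78, 0.14 and 0.59 (mean 0.46 ± 0.09, SE, n = 6, 1.38-fold, adjusted p = 0.0280). Values of 0.57, 0.47, 0.06, 0.22, 0.16 and 0.55 were found in block 48 (mean 0.34 ± 0.09, adjusted p = 0.0452). Both were above 0 on every array, array 1 included, and averaged 0.40 and 0.34 without arrays 2 and 4.

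The other membrane subunits were not called. Atp5j2 (subunit f) averaged 0.05, Atp5mpl -0.10, and the 2 clones of Atp5l (subunit g) -0.07 and -0.21. Atp5md, also known as DAPIT, gave 0.07 and 0.58 in its 2 clones (adjusted p = 0.665 and 0.0583). For the c ring, the rotor that protons turn in the membrane, the Atp5g1 clones averaged 0.07, -0.05 and -0.22 and the tested Atp5g3 clone 0.17. The scanner title of the latter names isocitrate dehydrogenase 2.

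Promoters of Atp5k and Atp5c1 are shown as the ATP synthase genes with at least 1 called clone whose windows held an NRF1 match, in capitals as above. The Atp5k window is chr5:108434400-108434649 (minus strand). Of the 2 Atp5c1 starts in RefSeq, that with the match is given, chr2:10080433-10080682 (minus strand).
Atp5k: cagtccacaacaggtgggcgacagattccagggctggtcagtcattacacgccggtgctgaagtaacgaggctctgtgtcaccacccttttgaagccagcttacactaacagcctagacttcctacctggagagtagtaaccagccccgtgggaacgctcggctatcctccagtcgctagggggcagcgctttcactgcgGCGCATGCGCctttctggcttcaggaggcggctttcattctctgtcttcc
Atp5c1: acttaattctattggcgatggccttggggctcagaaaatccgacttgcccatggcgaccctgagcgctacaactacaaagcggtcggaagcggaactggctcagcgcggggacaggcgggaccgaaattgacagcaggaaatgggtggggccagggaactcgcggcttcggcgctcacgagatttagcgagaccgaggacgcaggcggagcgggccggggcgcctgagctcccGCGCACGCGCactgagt
A RefSeq window was at hand for 30 of the 39 member genes. These genes had 33 windows. NRF1 letters stood in 4 windows (12.1%), beside 3.74% of all 32851, namely those of Atp5c1, Atp5h, Atp5k and Cox6a1. ETS letters stood in 8 windows (24.2%, beside 6.91%), those of Atp5e, Atp5h, Atp5j, Atp5l, Cox6a1, Cox6b1, Uqcr11 and Uqcrh. YY1 letters were found for Atp5j alone (3.03%, beside 3.91%). Of the 10 member genes with a window and a clone called higher, 3 held NRF1 letters, 2 ETS letters and 1 YY1 letters. A match describes the sequence and shows no binding.

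Set side by side by their medians on each array, the complexes differed on average by less than the SD over the arrays. On arrays 1 to 6 the median over the ATP synthase clones was -0.00, 0.51, 0.20, 0.46, 0.02 and 0.26. For the F1 head alone the medians were 0.02, 0.79, 0.42, 0.62, 0.03 and 0.30. Complex IV gave 0.13, 0.06, 0.09, 0.31, 0.10 and 0.33, and complex III 0.05, 0.16, 0.16, 0.08, 0.16 and 0.02. The difference between the medians of the ATP synthase and complex III was 0.13 ± 0.21 (mean ± SD over 6 arrays), positive on 4 arrays. Between complex IV and complex III it was 0.06 ± 0.17, positive on 3, and between the ATP synthase and complex IV 0.07 ± 0.21, also positive on 3. Each mean difference was smaller than its SD, which describes single arrays and not the error of the mean, and no test was made of them. The order also depended on the summary. As medians of the clones' means over arrays, complex IV had 0.25, the ATP synthase 0.20 and complex III 0.07.

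The ATP synthase values were high on arrays 2 and 4, which had the weakest wild-type signal, and near 0 on arrays 1 and 5. Of its 10 called clones, 8 had their highest value on array 2 or 4 and 8 had their lowest on array 1 or 5. In complex IV both counts were 3 of the 5 clones called higher. Without arrays 2 and 4 the medians were 0.14 for the ATP synthase, 0.18 for complex IV and 0.08 for complex III, and no member clone passed, beside 0.36% of all clones. Under an unadjusted p of 0.05 there were 22 member clones of 75, beside 18.5% of all clones. With global loess on the same 4 arrays, 7 of the 75 member clones were called, all higher. This is near the 8.59% of all clones called, so the count is not read as a result about the members. They were clones of Uqcrc1 (2), Cox5b, Cox7a2l, Atp5b and Atp5k (2). The part of the wild-type signal in these ratios was not tested.

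**Figure D3:**
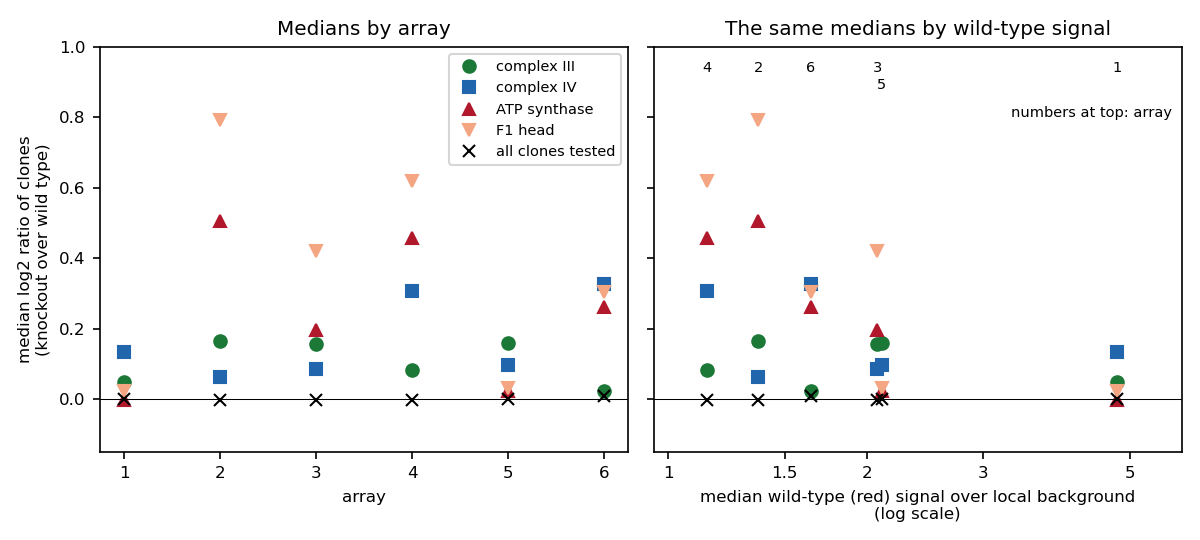
Median log2 ratio of knockout over wild type (y axis) of the clones of each group, by array (left) and by wild-type signal (right). The latter is the array's median of net wild-type signal over local background, on a log axis. ATP synthase and F1 head medians are highest on arrays 2 and 4, at 0.46 to 0.79, and at most 0.03 on arrays 1 and 5, while those of complex III stay between 0.02 and 0.16.

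The choice of curve mattered to single members. Print blocks differed in mean ratio, from -0.57 to 0.56 after 1 curve per array (global loess), and the block held 46.9% of the variance of the spots' mean ratios. With global loess 29 member clones passed, 26 higher and 3 lower, against 30.4% of all clones (16.3% higher, 14.1% lower). Of the 16 clones called with a curve per block, 10 were also called with global loess, in the same direction, and no clone was called in opposite directions. The estimates of 14 clones changed sign. Over the 81 clones the shift between the curves had a Pearson correlation of 0.94 with the mean ratio of the block, given as a description, since the block mean enters the shift.

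A ratio after global loess keeps the offset of its block. In simulated data with an offset per block held equal on all 6 arrays, nearly all calls made with global loess were false. The offsets measured here varied between arrays, in block 1 from -0.07 to -0.92, so the share of false calls in these data is not known. The 19 members called with global loess alone had these global ratios. In complex III they were Cyc1 in block 24 (0.46), Uqcr11 in block 38 (0.34) and Uqcrc1 in blocks 43, 44 and 48 (0.44, 0.87 and 0.95). In complex IV they were Cox4i1 in block 39 (0.52), Cox6a2 (-0.49), Cox7a2l in block 32 (0.66), Cox7c in block 47 (0.45) and Cox8a in block 37 (0.42). In the ATP synthase they were Atp5a1 in block 16 (0.49), Atp5b in block 19 (0.71), Atp5d in blocks 39 and 43 (0.51 and 0.52), Atp5h in row 1 of block 6 (-0.40), Atp5j in block 38 (0.69), Atp5md in blocks 9 and 23 (-0.40 and 0.72) and Atp5pb-ps in block 45 (0.63). The called clones of complex III lay in blocks whose mean global ratio was 0.08 to 0.56, and the 3 lower clones in blocks at -0.57, -0.37 and -0.40. The difference between complex IV and complex III medians became -0.09 ± 0.09 (SD, n = 6), positive on 0 arrays, so the order of these complexes turned with the curve.

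**Figure D4:**
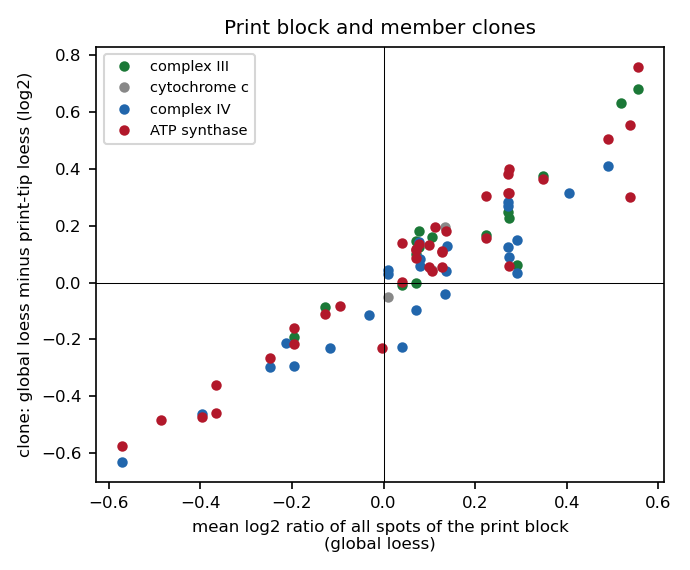
Each point is 1 of the 81 tested member clones, with the mean log2 ratio of all spots of its print block after global loess (x axis) and the clone's global loess ratio minus its print-tip loess ratio (y axis, log2), coloured by complex. Points rise from lower left to upper right, and clones in blocks at -0.57 and 0.56 are shifted by more than 0.5 in opposite directions.

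Other genes of the pathway were read from lists in the same fit, in which 11.3% of all clones were called (6.77% higher, 4.55% lower). Called were 9.1% of complex III assembly, 10.5% of complex IV assembly, 14.3% of ATP synthase assembly and 5.9% of regulator clones. These short lists lay near the share of all clones, so the calls in them are not read as results about the lists. Of the substrate carrier clones 42.9% were called. Of 11 clones of complex III assembly genes, none was higher and 1 was lower: Ttc19, which clears fragments of the Rieske protein, at -0.30 (adjusted p = 0.0331). The other Ttc19 clones, at -0.22 and -0.10, were not called. Among 19 clones of complex IV assembly and copper delivery genes 2 were higher, Cmc2 in block 12 at 0.37 and Cox19 in block 7 at 0.76. The other Cox19 clone was at -0.23, and the other Cmc2 clones, at 0.19 and 0.05, were not called. Of 7 clones for ATP synthase assembly and inhibition 1 was higher, Atpif1, whose product blocks ATP hydrolysis by the enzyme, at 0.39 (adjusted p = 0.039). The 7 clones of substrate carriers had a median of 0.46 and 3 were higher. They were Slc25a3, the phosphate carrier, in block 45 (1.01), and the ADP/ATP carriers Slc25a4 in block 8 (0.45) and Slc25a5 (0.55), and the 3 other Slc25a3 clones ranged from -0.04 to 0.49. Of 17 clones of regulators of mitochondrial genes none was higher and 1 was lower, Tfb2m, a factor of mitochondrial transcription, at -0.40 (adjusted p = 0.0312). The other Tfb2m clones, at -0.26 and -0.18, were not called. The list for complexes I and II took symbols that begin with Nduf, or with Sdh followed by a, b, c or d. It thus held assembly factors (Ndufaf genes) and the pseudogene Ndufs5-ps beside subunits. Its 73 tested clones had 9 higher (12.3%, beside 6.77% of all clones) and none lower. Their median was 0.16, 55 of the 73 had a positive ratio, and at an unadjusted p below 0.05 there were 26 higher and 1 lower. The clones of this list thus lay mostly above 0, as the members did.

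Markers of the cortex and of chromaffin cells had their highest medians on arrays 2 and 4, as the ATP synthase did. Over all clones tested, 6.77% were called higher and 4.55% lower, so counts in the lists below of 1 to 6 clones are not read as results. Of 9 tested clones of cortical markers 4 were higher and none lower, with a median of 0.67, and their medians on arrays 1 to 6 were -0.08, 1.55, 0.63, 1.37, 0.14 and 0.40. Their summed deposited intensity ranged over the arrays from 8685 to 66473 in the wild type and from 71905 to 131458 in the knockout. Of 9 clones of chromaffin markers 5 were higher and 1 lower (Slc18a1, -0.46), with a median of 0.65 and array medians of 0.17, 0.79, 0.39, 0.98, 0.13 and 0.78. Their sums ranged from 3952 to 28530 and from 29020 to 61719. For brown fat 0 of 3 clones passed (median -0.20, sums of 550 to 1410 and of 2550 to 3892), for adipocytes 0 of 1 (0.21), for skeletal muscle 0 of 2 (0.03), for red cells 0 of 3 (0.01), for endothelium 0 of 4 (-0.07), and for macrophages 1 of 6 was higher (0.24). No marker clone had a net signal smaller than its local background in both channels on every array. In RNA of a whole gland, more cells of a type and more RNA per cell cannot be told apart, and the part of cell makeup in the subunit ratios was not tested.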

How the data were processed

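Values are for 6 arrays (NIMH Mouse 36K cDNA), each wild type (Cy5) against knockout (Cy3), per the labels. The series design text names a GenePix 4000A scanner and a minimum of 0.3 on the quality of ratios the authors used. The deposited intensity columns (red SR_Mean, green SG_Mean) already lack the local background: in either channel the median of 768 empty positions was 1.0. The deposited quality score ranges from 0 to 1. The deposited calibrated ratio is red over green divided by a constant of each array, 0.220 to 0.783. The value table holds the authors' log2 ratios, in which the background is subtracted a second time, as a recomputation from the scanner values showed. It is not centred, with medians of wild type over knockout of -0.10, -1.65, -0.84, -2.59, -0.67 and -1.11 on arrays 1 to 6, and was used as an alternative.

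Spots not above a quality of 0.3, and 1024 spots that were controls or empty, did not enter. Log2 ratios of green over red were normalized by loess within each of 48 print blocks (span 0.3, 4 iterations, at least 243 spots per block and array), averaged per clone, and compared with 0 by limma 3.58.1 in R 4.3.3 (lmFit, eBayes) for the 28878 clones on at least 4 arrays. Every member clone had 1 spot. The procedure was tested on simulated data. Print block offsets, the same on each array, were put into those data. Nearly all calls made with global loess were then false, and few of those made with a curve per block. The number of arrays limits the precision.

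Genes were named from the platform annotation, linked to spots through the value table (35793 of 35873 rows, within 0.002), with symbols updated by gene ID (11616 of 11837 genes in RefSeq, GRCm38.p6). Such annotation can be old, and where the scanner title names or describes another gene, this is said beside the clone. Clones are called by their print block. Values on each array are given for called clones of 1 sign on every array, for the lowest p of a complex without one, and for other clones of those genes. Those of the 3 called clones of mixed sign (2 of Atp5b, 1 of Atp5pb), of Uqcrc1 block 48, Uqcrfs1 and of the intensities shown were added after values were seen, as were the promoters. Members and gene lists were chosen with earlier results of these data known, so no p is given for a list. Global loess, median centring, an offset of 50, other quality filters and leaving out arrays were the alternatives. Python 3.11.15 with pandas 2.3.3 was used.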

Additional observations from a re-analysis of the deposited data

Results flagged for a closer look

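Among 33 sets of values (the clones whose arrays are listed by rule and the array medians of each complex), 1 had a sample far from the others. The clones of Atp5b, Atp5pb, Uqcrc1 and Uqcrfs1 whose arrays were added later were not screened. Cox6c, with -2.14 on array 3, was not screened either. The Cox7a2l clone in block 18 gave 1.18 on array 4, where the next highest value was 0.39 (n = 6). Chance marks about 1 set in 20 in this way.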

How the results depend on the processing

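No paired analysis was possible because each ratio already pairs the 2 RNAs of an array and there is 1 group of arrays. The cause of the changes below was not tested. Calls over all clones (3271) became 8789 with global loess, 9493 with median centring, 0 without the quality filter (10192 at an unadjusted p below 0.05), 67 and 90 with the deposited value table as given and centred, and 94 without arrays 2 and 4. Member calls (16) became 29, 32, 0, 0, 0 and 0 under these, 5 of 37 with 1 clone per gene, 29 at an adjusted p below 0.10 (passed by 24.1% of all clones), and 7 with global loess without arrays 2 and 4, an alternative chosen after seeing the data. At an unadjusted p below 0.05 the settings with 0 member calls had 36, 47, 26 and 22. Complex III calls (0) became 5 with global loess, 4 with median centring, 1 with the offset of 50, 1 at 0.10 and 2 with global loess without arrays 2 and 4. Complex IV calls (6) became 0 without the quality filter, with both forms of the value table and without arrays 2 and 4, 2 with 1 clone per gene, and 2 with global loess without arrays 2 and 4. ATP synthase calls (10) became 16 with global loess, 19 with median centring, 0 in the same 4 settings, 3 with 1 clone per gene, 19 at 0.10 and 3 with global loess without arrays 2 and 4. Leaving out each array in turn gave 1 to 3823 calls over all clones, 0 to 21 among members, 0 to 1 in complex III, 0 in cytochrome c, 0 to 6 in complex IV and 0 to 14 in the ATP synthase, and medians of 0.08 to 0.11 (complex III), -0.20 to -0.13 (cytochrome c), 0.16 to 0.27 (complex IV) and 0.17 to 0.28 (ATP synthase). The complex III median (0.07) was 0.24 with global loess with or without arrays 2 and 4, 0.26 with median centring, and 1.23 and 0.48 with the value table as given and centred, where the median of all clones was 0.99 and 0.24. Under those 2 forms the cytochrome c median (-0.17) was 1.24 and 0.49 and that of complex IV (0.25) was 2.46 and 1.72, and the ATP synthase median (0.20) was 1.05 as given. With global loess the complex IV median was 0.11. Of 225 values of named clones under alternatives, 99 kept side and direction, 116 lost the call, 2 gained one and 8 reversed. Reversals were the Cox8a clone in block 9 (-0.11 with global loess, -0.0632 with median centring, -0.015 with the centred value table), and, with the centred value table, Atp5c1 in block 14 (-0.0568), Atp5j in block 13 (-0.0362), Uqcrh in block 21 (-0.50) and Cycs in block 27 (0.58, and 1.32 as given).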
